A study of Mus musculus with 9 samples.

Results

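Luminal keratins are the intermediate filament proteins of simple and glandular epithelium, and 4 genes for them were followed here across the lesions of a mouse model of prostate cancer. They are Krt7 and Krt8, which encode type II keratins, and Krt18 and Krt19, which encode type I keratins. They were chosen by name as simple-epithelial keratins, and each was read on the brightest of the probe sets that list its symbol alone. All 4 passed the filter on low signal, so they are 4 of the 16635 genes tested. Laser capture took lesions from fixed prostate sections of male mice aged 12 months and of mixed strain, and the amplified RNA was hybridised to Affymetrix Mouse Gene 2.0 ST arrays. The 9 arrays fall into 3 groups of 3. The first group is high-grade prostatic intraepithelial neoplasia (HG-PIN, dysplastic cells within the gland) of mice that carry PbCre and lack the T-3Mb-Erg allele, called control HG-PIN below. The other 2 groups are HG-PIN and solid tumour, described as poorly differentiated adenocarcinoma, of mice that carry PbCre and T-3Mb-Erg/+, called T-3Mb-Erg mice below. Both lesions of that genotype came from the same 3 mice, so the arrays stand for 6 mice. The study's description names epithelial cells as what was captured in HG-PIN, and names no cell type for the tumours. All groups share the probasin-driven Cre, which acts in prostate epithelium, and a further engineered allele, so the control lesions are not normal tissue. The T-3Mb-Erg allele is carried on 1 chromosome; the study concerns loss of 1 copy of the genes that lie between Tmprss2 and Erg.

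Keratin filaments form only when a type I and a type II protein pair. Krt8 with Krt18 is the primary pair of simple epithelia and marks luminal cells of the prostate. Krt19 and Krt7 join it in ducts and glands, and basal cells use other pairs built on Krt5, Krt14 and Krt15. An unpaired keratin protein is known to be degraded. In clinical pathology keratin staining is used to show that a poorly differentiated tumour is epithelial.

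The start regions of the Krt8, Krt18 and Krt7 genes are shown. The first 2 encode partners whose mean changes in tumours differed in size, by a difference that passed no test. Krt7 is the member whose signal lay nearest to background. The sequences come from the RefSeq promoter table of GRCm38.p6, which matched 3 of the 4 members; Krt19 was not matched. Each runs from 150 bases before the annotated start to 10 bases after it, 5′ to 3′ on the strand of the gene, and capitals mark motif matches.
Krt8, chr15:102004333-102004492, minus strand: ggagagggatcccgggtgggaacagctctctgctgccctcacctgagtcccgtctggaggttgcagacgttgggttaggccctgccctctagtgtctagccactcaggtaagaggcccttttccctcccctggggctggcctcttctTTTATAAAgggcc
Krt18, chr15:102028066-102028225, plus strand: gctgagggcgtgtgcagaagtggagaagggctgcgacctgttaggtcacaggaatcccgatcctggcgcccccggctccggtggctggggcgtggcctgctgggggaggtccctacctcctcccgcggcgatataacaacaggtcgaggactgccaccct
Krt7, chr15:101412253-101412412, plus strand: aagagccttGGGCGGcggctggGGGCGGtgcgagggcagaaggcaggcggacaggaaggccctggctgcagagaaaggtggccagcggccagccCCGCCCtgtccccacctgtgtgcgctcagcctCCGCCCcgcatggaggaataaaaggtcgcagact
Both strands of windows of 300 bases, from 250 before to 50 after the start, were searched for 4 short motifs. The core bound by ETS factors, the family of Erg, was spelled CCGGAA. The AP-1 motif of Fos and Jun was spelled TGANTCA. The GC box of Sp factors was spelled GGGCGG, and the TATA box of the basal machinery was spelled TATAAA. Krt7 held 4 GC boxes, and Krt8 held TATAAA across its annotated start, overlapping its own match on the other strand; Krt18 held none of the letters. No window of the 3 held the ETS or AP-1 letters. Of all 32851 windows of the same length, 14.9% held the ETS letters, 7.81% the AP-1 letters, 35.7% the GC box and 13.6% the TATA letters. These matches describe letters and not binding sites. Krt8 and Krt18 lie near each other on chromosome 15 on opposite strands, with 2 predicted gene models annotated between them, while Krt19 lies on chromosome 11.

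The arrays differed in the spread of their signal. The 95th percentile of log2 intensity over all probe sets ran from 6.16 to 6.49 among control arrays, from 6.26 to 6.61 among HG-PIN arrays of T-3Mb-Erg mice, and from 6.15 to 6.65 among tumour arrays. The lowest were control HG-PIN replicate 2 and tumour replicate 2. As a gauge of background, the 95th percentile of the mean signal of 1394 olfactory and vomeronasal receptor genes was 4.80 on the log2 scale, called the receptor level below. With 3 arrays per group, the number of arrays limits the precision of every value.

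**Figure D1:**
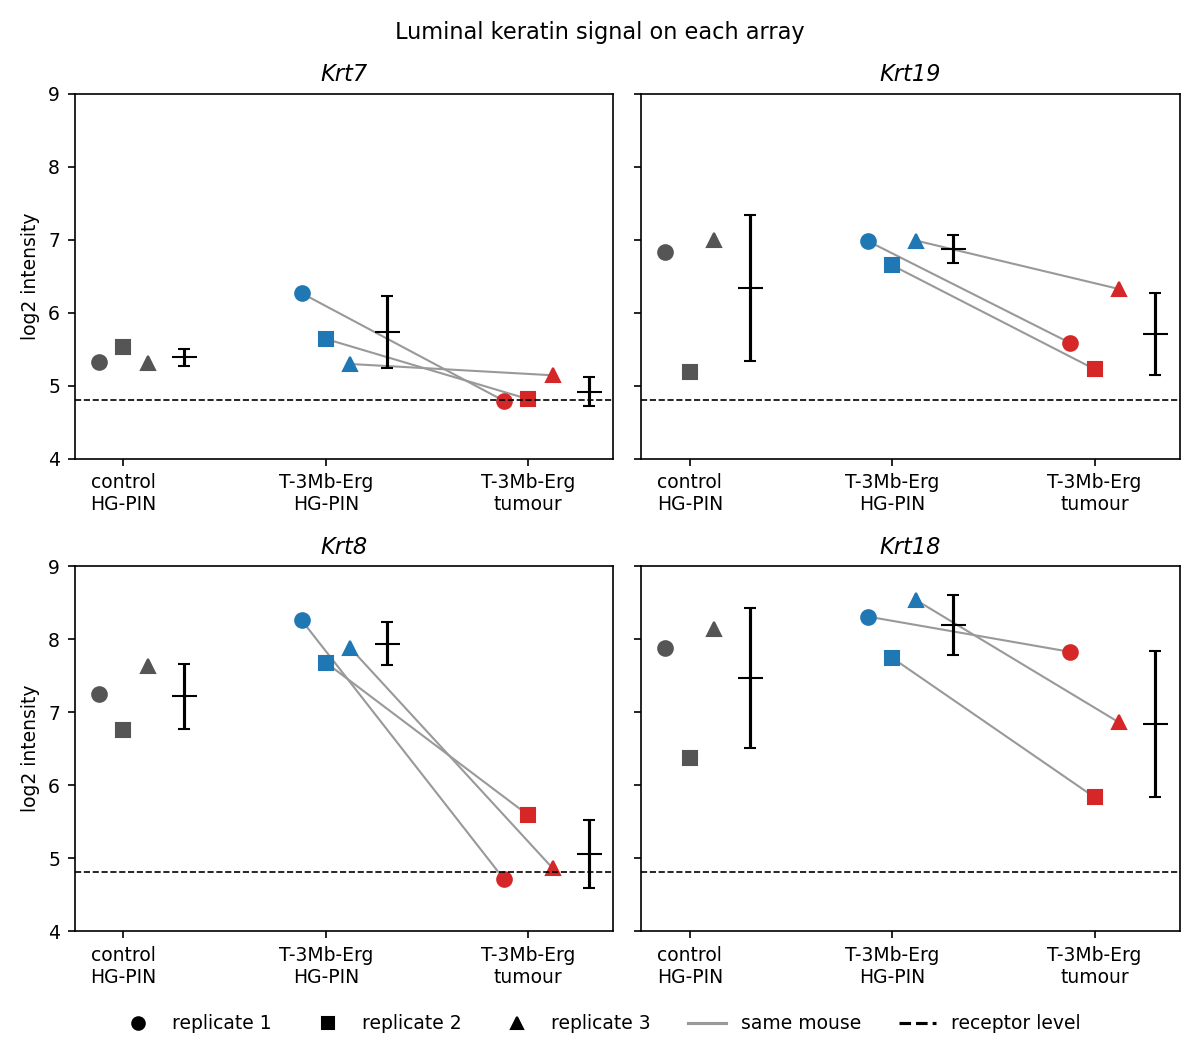
Log2 intensity of the 4 luminal keratins on each array, by group; symbols mark replicates, grey lines join lesions of the same mouse, bars show mean and SD, and the dashed line is the receptor level of 4.80. Krt8 drops in all 3 mice from between 7.68 and 8.26 to between 4.71 and 5.59, while Krt18 in tumours spreads from 5.83 to 7.82.

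The main comparison, made within the T-3Mb-Erg mice, set solid tumours against their own HG-PIN and asks what distinguishes the tumour within an animal. Krt8 fell by 2.88 on the log2 scale, a 7.38-fold lower signal, and was the only luminal keratin of the 4 to pass the test. Its partner Krt18 was 2.56-fold lower, Krt19 was 2.23-fold lower and Krt7 was 1.76-fold lower, and none of these passed. The test took the mouse as a random block whose correlation was -0.01, so it was close to an unpaired test. With the mouse as a fixed block none of the 4 passed (limma, adjusted p = 0.0505 for Krt8). All 4 were lower in 3 of 3 mice, as were 13.1% of all genes tested. Negative changes of any size were found for 51.1% of genes. Limma called 36 genes lower, which is 0.216% of the genes tested, and 11 genes higher. That balance turned to 25 lower and 85 higher without tumour replicate 2, and to 179 lower and 226 higher with array quality weights. In such captures, fewer epithelial cells and less keratin RNA per cell cannot be told apart.

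Krt8, the type II keratin of the primary luminal pair, read 306, 205 and 235 in T-3Mb-Erg HG-PIN replicates 1 to 3 on the linear intensity scale. In the tumours of the same mice it read 26.2, 48.1 and 29.1. Every tumour array lay below every HG-PIN array. On the log2 scale the mean went from 7.94 ± 0.30 to 5.06 ± 0.47 (SD, n = 3 each), a change of -2.88 with SE 0.39 and a 95% interval from -3.73 to -2.04 (limma, adjusted p = 0.0154). Only 30 of the 16635 genes had a more negative change. Tumour replicate 1, at 4.71, lay below the receptor level and replicate 3, at 4.86, close to it. Background may therefore limit the size of the fall, which was not tested. Blocked by mouse as a fixed term, the same change had adjusted p = 0.0505 and did not pass. The call also ended without tumour replicate 1 (adjusted p = 0.171) and without the HG-PIN array of mouse 1 (0.142) or mouse 2 (0.111), with changes between -2.95 and -2.74. A pseudogene, Krt8-ps, is annotated in the mouse genome, and whether its sequence is read by the same probes is not known.

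Krt18, the type I partner of Krt8, stood at log2 8.31, 7.74 and 8.53 in HG-PIN and at 7.82, 5.83 and 6.86 in the tumours of the same mice. The groups overlapped, because tumour replicate 1 was above HG-PIN replicate 2. The mean went from 8.19 ± 0.41 to 6.84 ± 0.996 (SD, n = 3 each), a change of -1.35 with SE 0.60 and a 95% interval from -2.66 to -0.05 (limma, adjusted p = 0.623). Krt18 is the member with 2 probe sets, and the dimmer set read 7.25, 5.80 and 7.42 in HG-PIN and 6.23, 3.60 and 5.22 in tumours. Its mean difference was -1.81, against -1.35 on the brighter set. Over the 9 arrays the probe sets followed each other closely, with Pearson's r = 0.98 between them as a description. Without tumour replicate 2, the array of narrowest range, the change of Krt18 was -0.81, and with array quality weights it was -0.60.

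Krt19, a type I keratin of ducts and glands, stood at log2 6.98, 6.65 and 6.98 in HG-PIN and at 5.58, 5.23 and 6.32 in tumours. No tumour array reached the lowest HG-PIN array. The change was -1.16 with SE 0.49 and a 95% interval from -2.22 to -0.10 (limma, adjusted p = 0.573). Krt7, a type II keratin of ducts and glands, stood at 6.27, 5.64 and 5.30 in HG-PIN and at 4.79, 4.82 and 5.14 in tumours. These groups did not overlap either, though HG-PIN replicate 3 was only 0.15 above the tumour of its own mouse. The change was -0.82 with SE 0.30 and a 95% interval from -1.46 to -0.17 (limma, adjusted p = 0.465). Krt7 in tumours averaged 4.92, just above the receptor level, and its lowest array, at 4.79, lay just below it. Groups without overlap and lower in tumours were thus found for 3 of the 4 members, and for 6.43% of all genes.

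**Figure D2:**
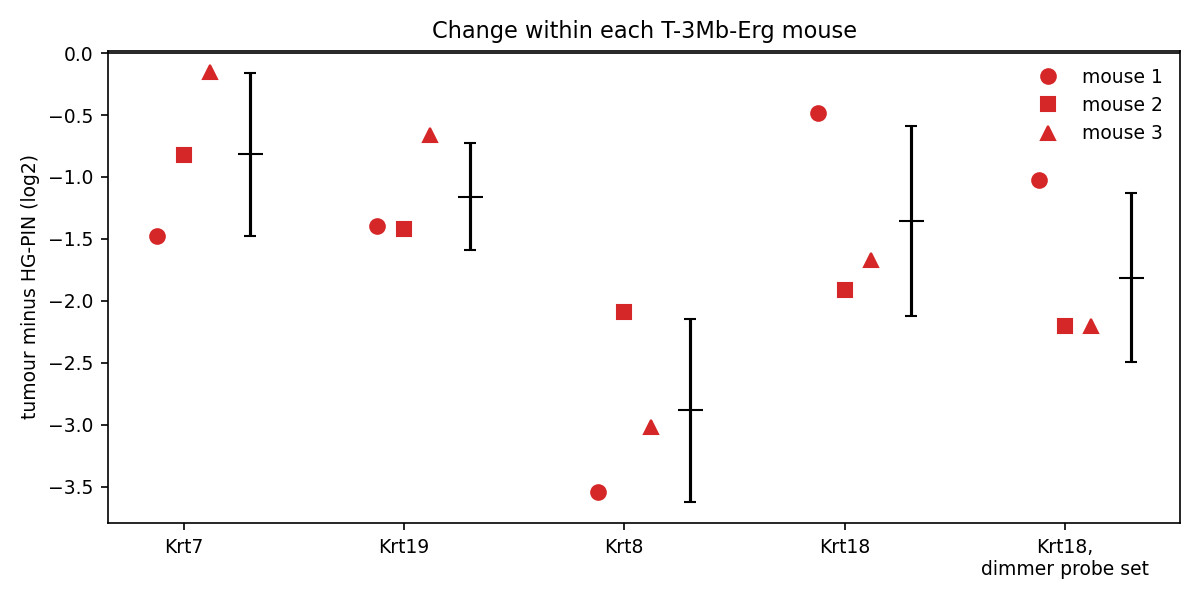
Log2 signal in tumour minus HG-PIN within each of the 3 T-3Mb-Erg mice, with mean and SD, for the 4 members and the dimmer Krt18 probe set. All values lie below 0; mouse 1 has the largest change of Krt8 (-3.55) and the smallest of Krt18 (-0.48).

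The mice ranked differently by member. Mouse 1 had the largest falls in Krt8 signal (-3.55) and Krt7 signal (-1.48) and the smallest difference in Krt18 (-0.48). Mouse 2 had the smallest difference in Krt8 (-2.09) and the largest in Krt18 (-1.91). Mouse 3 lay between them for both partners, at -3.02 and -1.67, on the brighter Krt18 probe set. On the dimmer set mouse 1 again differed least (-1.03), while mice 2 and 3 were nearly equal (-2.20 and -2.21). In mouse 3, Krt7 and Krt19 differed least, by -0.15 and -0.66.

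Whether 2 members changed by unequal amounts was tested on their within-array log2 difference, with an exact sign-flip permutation over the 3 mice (two-sided), for 6 pairs. On the brighter Krt18 probe set, Krt8 changed more than Krt18 in 3 of 3 mice, by -3.06, -0.18 and -1.34, a mean of -1.53. The permutation p was 0.25, the smallest that 3 mice allow, and 0.50 after adjustment over the pairs, so the test could not pass. Krt8 also changed more than Krt19 in each mouse (mean -1.72), again with exact permutation p = 0.25. Krt7 in HG-PIN averaged only 0.93 above the receptor level, and whether background limited its fall was not tested. The pairs with Krt7 are therefore not read as comparing sizes of change. Krt7 minus Krt8 averaged 2.07. The pairs among Krt7, Krt18 and Krt19 changed sign between mice, with means of 0.54, 0.34 and -0.19 and exact permutation p from 0.50 to 0.75. With the mean of both Krt18 probe sets in place of the brighter one, all 6 mean differences kept their direction. Krt8 minus Krt18 in mouse 2 was then only -0.03. On the dimmer set alone, Krt18 fell more than Krt8 in that mouse, by -2.20 against -2.09.

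The comparison of T-3Mb-Erg HG-PIN with control HG-PIN asks what the allele changes at the same lesion. All 4 keratins had positive changes, as did 49.5% of all genes. None passed, and limma called 0% of genes; without adjustment, p was under 0.05 for 304 higher and 378 lower genes. Krt8 stood at 7.25, 6.75 and 7.63 in control HG-PIN, so its T-3Mb-Erg HG-PIN arrays, at 7.68 and above, lay just above all of these. Its change was 0.73, with a 95% interval from -0.11 to 1.56 (limma, adjusted p = 0.998). Higher groups without overlap were found for 1 of the 4 members and for 4.86% of all genes. Krt18 stood at 7.88, 6.37 and 8.14 in control HG-PIN, and its change was also 0.73 (95% interval -0.57 to 2.02). Krt19 stood at 6.83, 5.19 and 6.996 in control HG-PIN, with a change of 0.53 (interval -0.52 to 1.59). In both type I genes the low value was control HG-PIN replicate 2, an array of narrow signal range. A fit that added a numeric term for signal range gave 0.62 for Krt18 and 0.43 for Krt19, and neither passed. Without control HG-PIN replicate 2 the change of Krt18 was 0.18 and that of Krt19 was -0.040. Why this array read low was not tested. Krt7 stood at 5.33, 5.52 and 5.31 in control HG-PIN, inside the range of T-3Mb-Erg HG-PIN, with a change of 0.35 (interval -0.29 to 0.99), which was 0.092 without replicate 1 of that group and 0.60 without its replicate 3. Other lists moved between the same groups, with none of their genes called. Basal keratins had 5 of 5 positive (median 0.85, Krt15 at 1.98), fibroblast markers 10 of 10 (median 0.79, and 1.20 without replicate 3 of T-3Mb-Erg HG-PIN) and smooth muscle markers 10 of 10 (median 0.82, and 0.40 without replicate 1 of T-3Mb-Erg HG-PIN). Luminal surface genes had 10 of 11 positive (median 0.28), and the part of other cells in these values was not tested.

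Tumours against control HG-PIN complete the 3 pairs of groups; this comparison shares arrays with both others and is set beside them as values. Krt8 was 4.46-fold lower in tumours, a log2 change of -2.16 (SE 0.38, 95% interval -2.998 to -1.32), and just missed the threshold (limma, adjusted p = 0.0548). Control HG-PIN arrays of Krt8 all lay above the highest tumour array. Krt18 and Krt19 both stood at -0.63, and Krt7 at -0.47, with adjusted p between 0.720 and 0.835. Single arrays moved these values: Krt18 was -0.078 without tumour replicate 2 and -1.17 without control HG-PIN replicate 2, and Krt19 ranged from -1.20 without that control array to -0.30 without control HG-PIN replicate 3. Limma called 0.0721% of genes lower here, and 53.7% of genes had negative changes. Groups without overlap and lower in tumours were found for Krt7 and Krt8 and for 7.51% of all genes. For each of the 4 genes the group means had the same order, with T-3Mb-Erg HG-PIN highest, control HG-PIN next and tumours lowest. The step between the HG-PIN groups passed no test in any of them.

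**Figure D3:**
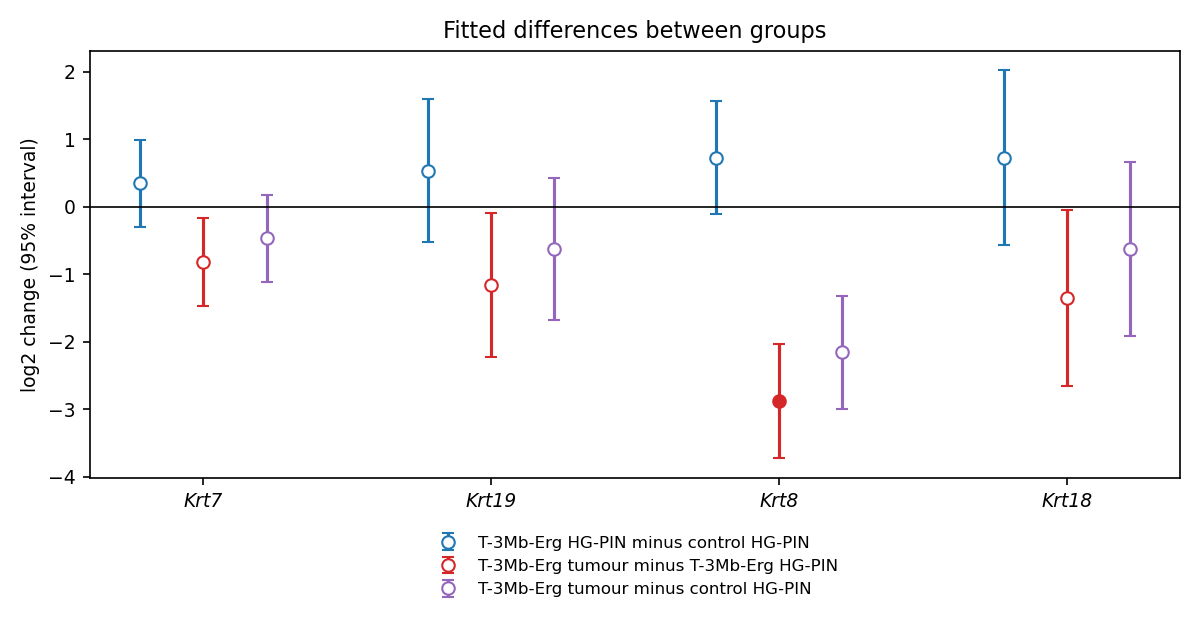
Fitted log2 change of each member in the 3 comparisons, with 95% intervals from limma; a filled point passed at adjusted p under 0.05. The single filled point is Krt8 in tumours against T-3Mb-Erg HG-PIN, at -2.88.

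Other keratins were set beside the members for tumours against T-3Mb-Erg HG-PIN. Of the 5 basal keratins tested, all had negative changes, with a median of -1.41, against -0.01 over all genes. Krt15, a basal type I keratin, had a change of -2.998 on the log2 scale and passed (limma, adjusted p = 0.0158), from 8.60 ± 0.40 to 5.60 ± 0.40 (SD, n = 3 each). Krt17 at -2.14 (adjusted p = 0.0599), Krt14 at -1.41, Krt6a at -0.93 and Krt6b at -0.33 did not pass. Krt5 had no probe set with its symbol alone, and Krt16 lay below the filter. Of the other simple keratins, Krt20, a keratin of gut and urothelium, stood at -0.78 and Krt23 at -0.61, and both were below the receptor level in every group. Among 12 keratins of stratified epithelia 8 were negative, with a median of -0.11. Of these, Krt4, a keratin of stratified mucosa that is also known from luminal cells near the urethra, fell by 2.16 (adjusted p = 0.0294). Its mean in tumours, 4.08, lay below the receptor level. Of 21 hair and nail keratins, which serve here as keratins not known from prostate, 18 were negative, with a median of -0.08 and none called. All these counts of negative keratins stand beside 51.1% of all genes, and the hair keratins too were mostly negative. The 2 with the smallest p were Krt35 and Krt42, at -0.44 and -0.45. With the fixed block Krt15 (adjusted p = 0.0473) and Krt4 (0.0215) kept their calls. Leaving out single arrays left between 0 and 2 basal keratins called.

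**Figure D4:**
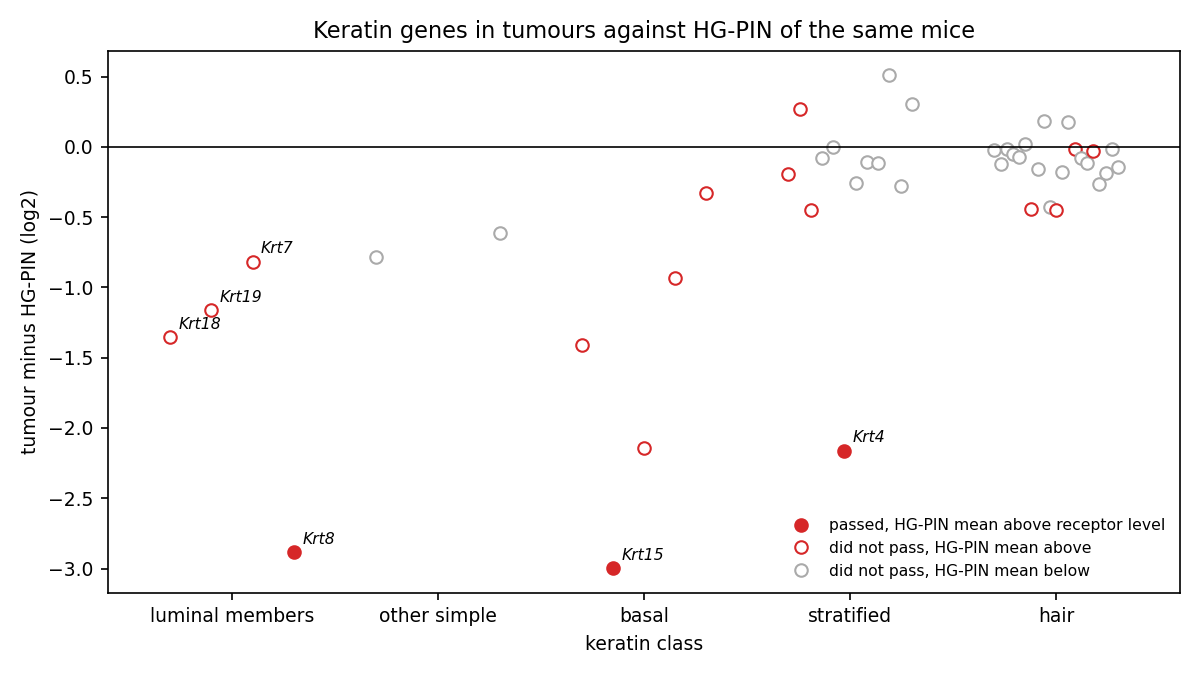
Log2 change in tumours against HG-PIN of the same mice for the 4 members and the 40 other listed keratins tested, by class; filled points passed, and grey points had an HG-PIN mean below the receptor level. Krt8, Krt15 and Krt4 are the filled points, and hair keratins lie between -0.45 and 0.18.

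Proteins that anchor or organise keratin filaments were read next. Of 14 desmosome, cytolinker and keratin-binding genes tested, 11 were negative, as were 51.1% of all genes. Their median was -0.30, and none was called. The means of 6 of the 14 lay above the receptor level in T-3Mb-Erg HG-PIN, so for the others a fall was hardly measurable. The smallest p values were those of Dsg2, a desmosomal cadherin of simple epithelia, at -1.49 (limma, adjusted p = 0.126), and Ppl, periplakin, at -0.85 (0.197). The means of Ppl lay below the receptor level in every group. Other intermediate filament genes had 6 of 10 members positive, a median of 0.14 and none called. Vim, the filament protein of mesenchymal cells, stood at 6.83 ± 0.63 in HG-PIN and at 8.63 ± 0.80 in tumours (SD, n = 3 each), a change of 1.80 (adjusted p = 0.256). Prph, the filament gene of peripheral neurons, had the next smallest p, with a change of 0.29 (adjusted p = 0.889). Its means lay below the receptor level in every group.

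The counts in the lists that follow stand beside 51.1% of all genes negative and 0.216% called lower. Among factors that maintain epithelial gene expression, 14 of 15 were negative with a median of -0.58, and 3 fell. These were the transcription factors Elf3 (-2.91), Foxa1 (-2.74) and Ehf (-2.62), with limma adjusted p from 0.0154 to 0.0366. Surface and junction genes of luminal cells had 11 of 11 negative and a median of -1.88, and 5 fell. The 4 with the smallest p were the tight junction gene Cldn4 (-3.76), the membrane protease gene St14 (-1.88), the adhesion gene Cdh1 (-2.88) and Epcam (-2.55). Of 8 tested genes known from luminal cells near the urethra, all were negative, with a median of -2.30, and 3 fell: Krt4, the secreted chaperone gene Clu (-3.15) and Wfdc2 (-3.09). In T-3Mb-Erg HG-PIN, 7 of 15, 10 of 11 and 7 of 8 means of these lists lay above the receptor level. In tumours 1, 2 and 4 did. The tumour means of Elf3, Foxa1, Ehf, Cldn4, St14, Cdh1, Epcam and Krt4 lay below it, and those of Clu and Wfdc2 above. Whether background limited these falls was not tested. With the fixed block 0, 1 and 1 genes of these lists were called, Cldn4 and Krt4. Leaving out single arrays gave from 0 to 4, 6 and 6 calls, with 0 in each without tumour replicate 1. The lists were made with earlier results of these samples known, so their direction is no independent evidence.

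Markers of other cell types moved between the same groups. All 10 fibroblast markers tested were positive in tumours, with a median of 1.46 and none called; Pdgfra at 1.95 and Thy1 at 1.99 had the smallest p. That median was 0.52 without tumour replicate 3, 0.87 without HG-PIN replicate 3 and 2.13 without tumour replicate 2, and within mice 1 to 3 it was 0.91, 0.071 and 2.89. Their summed linear intensity ran from 195 to 231 over control arrays, from 264 to 667 over HG-PIN arrays of T-3Mb-Erg mice, and from 489 to 3517 over tumour arrays. Tumour replicate 2, the array of narrowest range, had the lowest fibroblast sum of the tumours, 489, and the highest Krt8 signal. It also had the lowest Krt18 and Krt19 signals and the lowest luminal surface sum, 244 against 640 and 726. The defining marker Col1a1 averaged 7.66 in tumours, above the receptor level, as did 7 of the 10. Smooth muscle markers had 9 of 10 negative with a median of -0.69 (-0.19 without HG-PIN replicate 1); Myl9 (-0.96) and Lmod1 (-0.54) had the smallest p. The list's sums overlapped, with 288 to 1403 in the HG-PIN and 215 to 522 in the tumours of those mice. Endothelial markers had 7 of 7 positive with a median of 0.31 (0.073 without HG-PIN replicate 1, 0.58 without tumour replicate 1). Emcn (1.02) and Pecam1 (0.87) had the smallest p, with list sums of 149 to 374 in tumours against 116 to 135 in their HG-PIN. Leukocyte markers had 3 of 7 positive with a median of -0.10, between -0.30 and 0.080 without single arrays; their sums overlapped, and Cd52 (-1.84) and Csf1r (-0.52) had the smallest p. None of these markers was called. The means of Lmod1, Emcn and Csf1r lay below the receptor level in every group. In T-3Mb-Erg HG-PIN, 6 of 10 smooth muscle, 1 of 7 endothelial and 3 of 7 leukocyte means lay above it. In tumours 4, 2 and 2 did. The part of such cell types in the keratin values was not tested.

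Genes whose signal followed each member most closely were named by Pearson's r of log2 values over the 9 arrays, as a description; the arrays share mice, groups and signal range. Krt8 was followed by Mylip, an E3 ubiquitin ligase gene (r = 0.99), St14 (0.99), Cyp2f2, a cytochrome P450 gene (0.98), Blnk, an adaptor gene of B cell signalling (0.98), and Cldn4 (0.98). Of these 5, all but Mylip (adjusted p = 0.0656) were called lower in tumours, as were 0.216% of all genes. Genes named here were picked for following a member over the same arrays, so their calls, or lack of calls, are no independent evidence. Krt18 was followed by Srp9 (0.97), Tmod3, a tropomodulin gene (0.95), Tuba1c, a tubulin gene (0.94), Erbb2, a receptor tyrosine kinase gene (0.94), and Uri1 (0.91). Krt19 was followed by Myl12b (0.95), Ivns1abp (0.95), Trappc3 (0.95), Cmtm8 (0.95) and Aplp2 (0.95), and Krt7 by Rpe (0.96), Trp53rkb (0.95), Onecut2 (0.95), Dsc2 (0.93) and Rnf39 (0.93). None of those following Krt18, Krt19 or Krt7 was called, and the means of Rpe, Onecut2 and Dsc2 lay below the receptor level in every group. Between members, r was 0.84 for Krt18 with Krt19, both low on the 2 arrays of narrowest range, and 0.77 for Krt7 with Krt8. For the partners Krt8 and Krt18 it was 0.58, and the remaining pairs lay between 0.41 and 0.68.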

How the data were processed

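Each of the 9 arrays has a deposited intensity for 41345 probe sets, linear and between 1.36 and 13922. Per the labels' protocols, RNA of fixed, laser-captured tissue was amplified with a NuGEN Ovation system. How the authors corrected background, summarised probes and normalized is not given in the sources used here, nor is a genome build. Probe sets with 1 symbol (23521) were named through the platform annotation, updated by Entrez identifier (23328 matched) with RefSeq's GRCm38.p6 gene table; 1814 with several symbols and 16010 with none were left unnamed. The brightest probe set of each of 22180 symbols was kept, values were log2-transformed (floor 1, never reached), and the lowest 25% by mean (below 3.25) removed. Over all 9 arrays, limma 3.58.1 (R 4.3.3) fitted group means, the mouse as a random block (consensus correlation -0.01), a variance trend, and Benjamini-Hochberg adjustment over 16635 genes, called under 0.05. Unless a setting is named, each adjusted p is limma's from that model.

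The labels' mouse identifiers pair both lesions of the T-3Mb-Erg mice; same-mouse deviations from group means correlated at 0.17, 0.10 and -0.30. Replicate numbers of control mice only name them. An allele that all groups share is not reported here. The fit was tested on simulated data. The members and the 13 gene lists were chosen with earlier results of these data known. Named genes were the members, the tested basal and other simple keratins, up to 4 called members of each further list (or else the 2 with the smallest p), and the 5 genes most correlated with each member. Alternatives covered filters, normalization, a pseudocount of 16, probe sets, blocks, arrays, weights, trend and range.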

Additional observations from a re-analysis of the deposited data

How the results depend on the processing

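Of 22 alternatives, Krt8 in tumours against T-3Mb-Erg HG-PIN was called in 18 with a change from -3.18 to -2.40; the fixed replicate block gave -2.88 (adjusted p = 0.0505) and leaving out single arrays -3.12 to -2.74 (adjusted p from 0.00660 to 0.171). That block was fitted only for this comparison, since the others are between mice, and it changed no other call of a member. Without a block the adjusted p of Krt8 was 0.0145. Against control HG-PIN, Krt8 passed in 8 settings: quantile normalization (-2.25), the mean of all probe sets (-2.16), array weights (-2.53), no variance trend (-2.16), the range term (-2.17), the narrowest-range array of each group left out (-2.65, a setting chosen after seeing the data) and 2 of the fits without single arrays (-2.40 to -1.95 over all). Krt19 between the HG-PIN groups turned from 0.53 to -0.10 with the narrowest-range arrays left out and ranged from -0.040 (without control HG-PIN replicate 2) to 0.86 over single arrays. All other member results kept their direction and their side of the threshold.

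Counts of called genes moved more. Between the HG-PIN groups, 0 became 4 on the 6 arrays compared, 9 with array weights, 7 with the range term, 4 without the narrowest-range arrays, and 0 to 6 over single arrays. For tumours against T-3Mb-Erg HG-PIN, 47 became 81 with quantile normalization, 18 with median scaling, 18 with the pseudocount, 15 with the fixed replicate block, 405 with array weights, 194 with the range term and 182 without the narrowest-range arrays. Single arrays gave 0 (tumour replicate 1) to 110 (tumour replicate 2). For tumours against control HG-PIN, 30 became 88, 12 and 8 with quantile normalization, median scaling and the pseudocount. It became 7 on the 6 arrays, 938 with array weights, 196 with the range term, 260 without the narrowest-range arrays, and 0 (control HG-PIN replicate 3) to 261 (tumour replicate 2) over single arrays. The causes were not tested. Krt7 and Krt8 in tumours lay near the receptor level, and whether background limited their falls was not tested.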
